A study of Mus musculus with 44 samples.

Results

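High-throughput genome-wide translocation sequencing (HTGTS) reads DNA outwards from a fixed bait break and records which other piece of the genome, the prey, was joined to it. The bait here was an AsiSI motif on mouse chromosome 2, at chr2:13271317-13271324 (mm10), within the annotated UTR of Rsu1 and 10 bp from the nearest annotated start of that gene. The joins described here are those in which bait and prey share a long stretch of letters at an AsiSI motif. The joins were chosen by measured values, namely prey position and overlap length, from the 26 junction tables of AsiSI-MEFs. They were those more than 10 kb from the bait, under 500 bp from one of the 1108 other AsiSI motifs of the study's list, and with an overlap of 6 bases or more. The overlap is the number of read letters that both the bait alignment and the prey alignment claim. Of 123783 deposited joins in these 26 libraries, 113691 lay more than 10 kb from the bait on the assembled chromosomes. Of those, 78573 were proximal, meaning under 500 bp from a motif, and 22791 of the proximal joins (29.0%) met the overlap rule. They were split into 18385 motif-keeping joins, in which the bait alignment reached the end of its 8-base recognition motif and the prey alignment began at or before the edge of its own, and 4406 other long-overlap joins. The remaining 55782 proximal joins are called shorter-overlap joins. Because the rule used overlap length and position, these counts describe the joins and are not tested.

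AsiSI-MEFs are mouse embryonic fibroblasts, labelled WT and C57BL/6, that carry an inducible AsiSI fused to an estrogen receptor fragment. All 26 libraries came from cells given doxycycline (3 µg/ml, 24 h) and 4-hydroxytamoxifen (1 µg/ml, for the last 6 h), so the control libraries were damaged cells as well. In the largest experiment, 6 DMSO libraries were set against 6 with CK-666 (100 µM), which inhibits the ARP2/3 actin nucleator, and 3 controls against 3 libraries with NU7441 (10 µM, from 1 h before), which inhibits DNA-PKcs. In the smaller experiments, 2 controls were set against 2 libraries with wiskostatin (3 µM), which inhibits the ARP2/3 activator WASP, and 2 empty-vector libraries against 2 from cells expressing Actin-R62D-NLS, a polymerization-deficient actin mutant directed to the nucleus by a localization signal. Another 6 libraries came from WT MEFs without AsiSI, in which Cas9 and a guide cut the same bait, with DMSO (3) or CK-666 (3). The study calls its libraries biological replicates, but the labels do not say which were separate cultures, so the p-values below measure the spread between libraries.

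AsiSI recognises GCGATCGC and cuts both strands within it, which leaves short 3′ overhangs that can pair between any AsiSI ends. Classical non-homologous end joining, which depends on DNA-PKcs, seals ends with little loss, whereas alternative end joining exposes single strands and pairs short repeats, or microhomologies, before ligation. In a join scored by overlap, a repeat present in both partners counts as shared even where no base was lost. Both partners of every join at an AsiSI motif carry the same 8 letters, so a bait end joined to a prey end without loss restores 1 motif and is scored with an overlap of at least the motif length.

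The sequences below show this for the bait and for Nup214, which encodes a nuclear pore component and lies near one of the most used prey motifs. Reference sequences are from the GRCm38 assembly. Capitals mark the motif in the bait and, in each prey, the unbroken stretch that matches the bait around the motif. The prey is written in the direction in which the joined read runs.
Bait, chr2:13271306-13271335, plus strand: accctgtcccaGCGATCGCgcaggcgcaca
Nup214 prey, chr2:31974690-31974719, plus strand: ttcgcagggtcGCGATCGCtcgccccacag
Joined read, bait to Nup214 on Strand plus: accctgtcccaGCGATCGCtcgccccacag
The joined read was the bait up to and including 1 motif, then the prey. It was the most frequent motif-keeping junction, level with one at Romo1, with 72 joins in 26 of the 26 libraries, and 71 of those reads carried exactly these letters.

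Where a prey also matched the bait beside the motif, the shared stretch was longer. The next sequences show 3 such prey motifs, near Pomt1 (a protein O-mannosyltransferase), Dnmt3b (a de novo DNA methyltransferase) and Chst1 (a carbohydrate sulfotransferase), with capitals as before.
Pomt1 prey, chr2:32235992-32236021, plus strand: ctaaccactgAGCGATCGCccagccccatt
Dnmt3b prey, chr2:153649692-153649721, minus strand: agcgcggcgccGCGATCGCGCcgcgggtcc
Chst1 prey, chr2:92600345-92600374, minus strand: ggaggtcaggAGCGATCGCGgagctctccg
The shared stretch was 9 bases for Pomt1 and 10 for Dnmt3b and Chst1. Over the listed motifs taken in both directions, 66.8% shared exactly 8 bases with the bait, 21.3% shared 9 and 8.84% shared 10.

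Overlap lengths fell into separate peaks. The most frequent value over all proximal joins was 0 bases, with 16866 joins, and counts then fell to 13204 joins at 1 base and 1626 at 5 bases, the value just outside the rule. Just inside it, 1816 joins had 6 bases and 1503 had 7. Counts then rose to 9460 joins at 8 bases, which alone made up 41.5% of the long-overlap joins, and fell to 4915 at 9 bases and 2183 at 10. The 2 classes of long-overlap joins differed in length. Of the joins with 6 bases, 68 were motif-keeping and 1748 were other, and with 8 bases 8968 were motif-keeping and 492 were other. The median overlap was 9 bases for motif-keeping joins and 7 for the other joins.

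**Figure D1:**
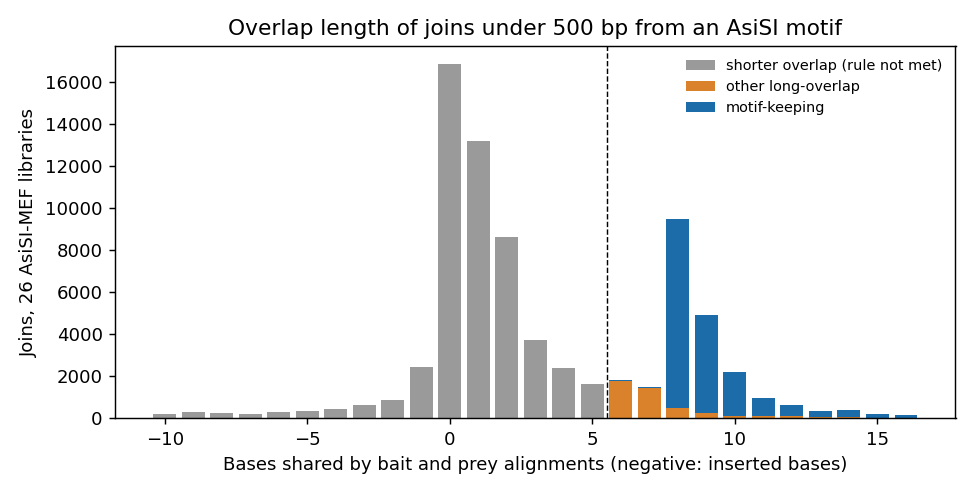
Number of joins (vertical axis) by bases shared between bait and prey alignments (horizontal axis; negative values are bases inserted between them) for proximal joins of the 26 AsiSI-MEF libraries, with the dashed line at the rule of 6 bases. One peak is at 0 bases (16866 joins) and the other at 8 bases (9460 joins), and the second consists mostly of motif-keeping joins.

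The length of the overlap in motif-keeping joins followed the sequence around the prey motif. In 17985 of the 18385 (97.8%) the alignments were in register. That is, their end positions, after subtracting the overlap, placed the bait and prey motifs on the same read letters. Gaps inside an alignment were not counted, so a base lost there left a join in register. In 15639 of these 17985 joins (87.0%) the overlap was exactly the one that the 2 reference sequences share around the motif. It was longer in 10.6% and shorter in 2.41%. At prey motifs that share exactly 8 bases with the bait the median overlap was 8 bases, at those that share 9 it was 9, and the medians were 10, 11, 12, 13 and 17 where the reference gave those lengths. The motif letters themselves stood in the overlap of 18036 motif-keeping reads (98.1%).

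The other long-overlap joins were a mixture. Of the 4406, 2583 (58.6%) were also in register. In 677 of these the read held the whole motif at the place where both alignments put it, but the deposited bait or prey alignment stopped short of covering it. In the other 1906 (43.3% of the class) the motif was changed in the read. Only 1 letter was off in 1333 of them, and in 1116 of the 1333 (83.7%) it was letter 7 or 8 of the motif counted from its 5′ end. The most frequent changes were G7A (313 joins), G7T (232), C8T (222) and C8A (206). In the rest more than 1 letter differed, most often as AGCGTCGC (105 joins) and AGCATCGC (63). AGCGTCGC reads as the motif without its first A, preceded by the A beside the bait motif. Letters near the end of the motif are also those at which a mismatch leaves an overlap of 6 or 7 bases, so the rule itself favours these positions. The read below shows such a join at Nup214 (10 of the 18 joins of this junction had exactly these letters), with the 6 overlapping bases in capitals and G7A following them.
Joined read, bait to Nup214, motif changed: accctgtcccaGCGATCactcgccccac
Sequencing errors and changes made at the join cannot be told apart in these tables.

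The remaining 1823 other joins (41.4%) were out of register. In 1032 of them a mismatch or gap lay inside the overlap or at its edge, and in 791 the overlap was unbroken. Any unbroken stretch of 6 bases or more in the 1032, or in the 400 motif-keeping joins out of register, was not counted. The 791 joins, 3.47% of all long-overlap joins, had an unbroken shared stretch of 6 bases or more at a place other than the aligned motifs. They fell at 298 distinct junctions and 156 motifs, and each of the 26 libraries had at least 1. Of the 298 junctions, 127 were seen in more than 1 library. The shared stretch was 6 bases in 435 of these joins, 7 in 206 and 8 or more in 150, and its letters were on average 72.8% G or C. The stretch CCCAGC, the bait letters running into the first bases of the motif, made up 141 of the 791 joins (17.8%).

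The 2 most frequent unbroken junctions, at Pomt1 and Fam160b1, paired these bait letters with a copy next to a prey motif. The next in number, with 17 joins each, were at Trps1, Etv4 and Romo1 and used other bait letters. The reads of all but Etv4 are shown with the overlap in capitals.
Joined read, bait to Pomt1 on Strand plus: acacaccctgtCCCAGCcccattgctac
Joined read, bait to Fam160b1 on Strand plus: acacaccctgtCCCAGCtcacaccatct
Joined read, bait to Trps1 on Strand minus: cacaccctgtcCCAGCGctgcgcccgcg
Joined read, bait to Romo1 on Strand plus: caccctgtcccAGCGATCccacggaccgc
The Pomt1 junction had 28 joins in 20 libraries and the Fam160b1 junction 24 joins in 19. In both, 7 bases of the prey motif were missing, the bait stopped 6 bases short of the end of its own, and the net loss was 11 bases. The Trps1 and Etv4 junctions were each seen in 16 libraries, with prey that began 37 and 44 bases before the prey motif, and the Etv4 overlap was 10 bases. The Romo1 junction was seen in 13 libraries, and its prey began 60 bases before the prey motif.

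Alignment ends separated the classes accordingly, although overlap and motif coverage are what defined them. By rule, no motif-keeping join had a bait that stopped short or a prey that began inside its motif. In 8942 of them (48.6%) both alignments stopped exactly at the motif edges, and in 3163 (17.2%) the bait ran 1 base further. Only 14.3% of the other long-overlap joins had a bait alignment that reached the motif end. Over the class, a median of 2 bait motif bases was missing from the bait alignment, with 9 at the 90th percentile and 24 at most. Bases missing from an alignment need not be missing from the read. The net loss had a median of 0 bases over the class, and in its 2583 joins in register it was 0 by definition. The prey alignment began at or before the edge of its motif in 68.1%, and inside or past the motif in the rest. Among the 791 unbroken out-of-register joins, 366 had a recessed prey end, with a median of 21 prey bases missing from the motif edge and a median net loss of 28 bases. The other 425 began before the prey motif, and their bait stopped a median of 6 bases short.

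Prey that began 9 or more bases before their own motif were rare among motif-keeping joins, with 280 joins (1.52%), of which 148 ended inside the motif and 46 before it, and made up 801 of the other long-overlap joins (18.2%) and 9705 of the shorter-overlap joins (17.4%). In 431 of the 801 the prey alignment ran past the whole motif, and 411 of those reads held the intact motif letters there. In 85 of the 801 the alignment ended inside the motif and in 285 before it. Among the 9705 shorter-overlap joins of this kind the alignment ran past the motif in 1120 (11.5%) and ended before it in 7113.

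**Figure D2:**
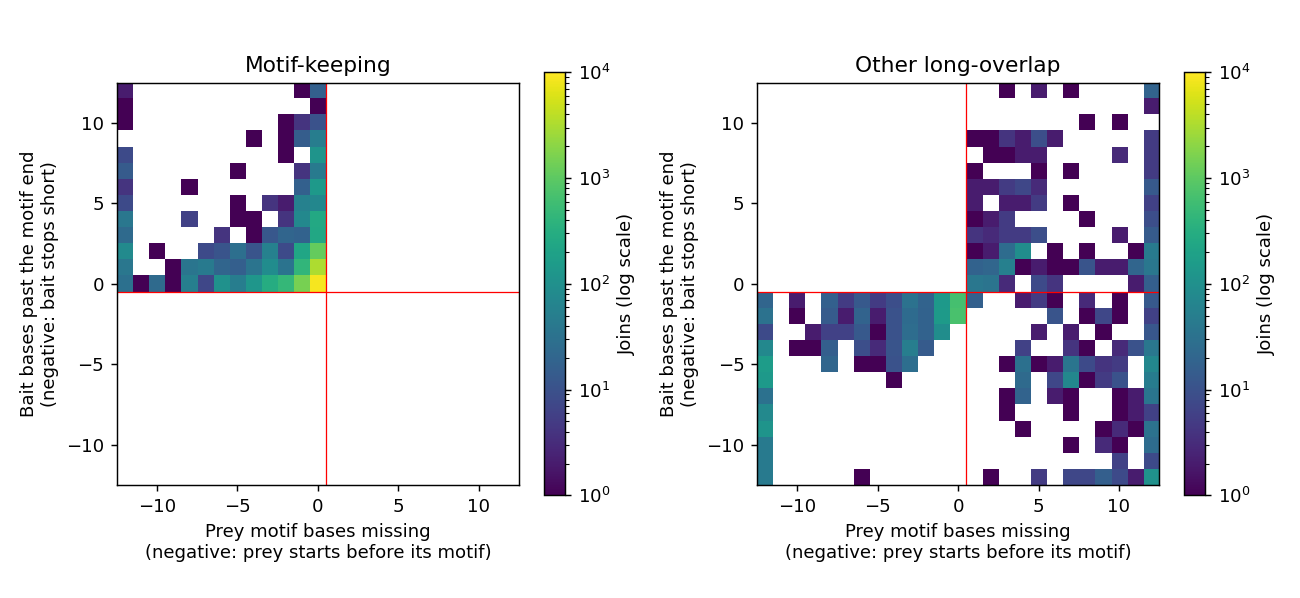
Joins of the 26 AsiSI-MEF libraries by prey motif bases missing from the prey alignment (horizontal axis, in bases; negative where the prey starts before its motif) and bait bases past the end of the bait motif (vertical axis, in bases; negative where the bait stops short), with color for the number of joins on a log scale and values beyond 12 bases drawn at the edge. The red lines bound the area in which the bait reaches its motif end and the prey begins at or before its motif, where by definition all 18385 motif-keeping joins lie, 8942 of them at its corner; the other long-overlap joins lie outside it.

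Distance to the cut site mirrored these ends. The median distance of the prey position from the cut position was 4 bp in both classes. The 95th percentile was 7 bp for motif-keeping joins and 125 bp for the other joins. Near the limit of 500 bp the joins were few. There were 17 long-overlap joins in the last 100 bp inside that limit and 19 in the first 100 bp outside it.

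The share of proximal joins that kept the motif varied widely between libraries. Across the 13 control libraries it ranged from 10.3% to 45.7%, with a mean of 28.2% ± 11.1 (SD, n = 13). The other long-overlap share was 5.29% ± 1.06 (SD, n = 13) and ranged from 3.49% to 7.09%. In the 6 DMSO libraries the motif-keeping shares were 45.7%, 33.9%, 27.7%, 28.7%, 45.2% and 23.2%, for replicates 1 to 6, and the corresponding proximal joins numbered 912, 1465, 3740, 3371, 1302 and 4049. The share was thus highest in the smallest library and lowest in the largest. In the 3 NU7441 control libraries the shares were 25.4%, 27.1% and 10.3% with 2357, 1746 and 11669 proximal joins, and the largest library again had the lowest share. For a single library the 95% Wilson interval was narrow beside these differences, from 42.5% to 49.0% in DMSO replicate 1 and from 9.79% to 10.9% in NU7441 control replicate 3. Such intervals cover counting error only, since the reads carry no molecular identifiers.

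The number of motif-keeping joins rose less than in proportion to the rest of the library. Across the 13 control libraries, the log2 number of motif-keeping joins increased by 0.40 ± 0.05 (SE) for each doubling of the remaining proximal joins, where a constant share would give a slope of 1. The numbers were correlated across the 13 libraries, with Pearson's r = 0.92 and Spearman's rho = 0.91 (permutation p = 3e-05 and 7e-05, adjusted p = 5e-05 and 0.00012 over 10 relations). Both are counts from the same libraries and rise together with library size. These p-values therefore do not test whether the slope lies below 1, and no conclusion is drawn from them. Without the 2 libraries farthest from the median number of remaining joins, r was 0.87. In the 13 treated libraries the slope was 0.43 ± 0.05, r was 0.94 and rho 0.92. The share and the library size moved in opposite directions, with rho = -0.92 in the controls and -0.97 in the treated libraries, but the share holds the number in its denominator, so these values are given as a description. The ordering also held within sequencing runs, as named by the flow cell of the reads. The rho between share and remaining joins was -0.98 in a run of 8 libraries, -0.94 in a run of 6 and -1 in each of the 2 runs of 4. Between the highest and the lowest control library the motif-keeping share differed 4.43-fold and the other long-overlap share 2.03-fold.

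**Figure D3:**
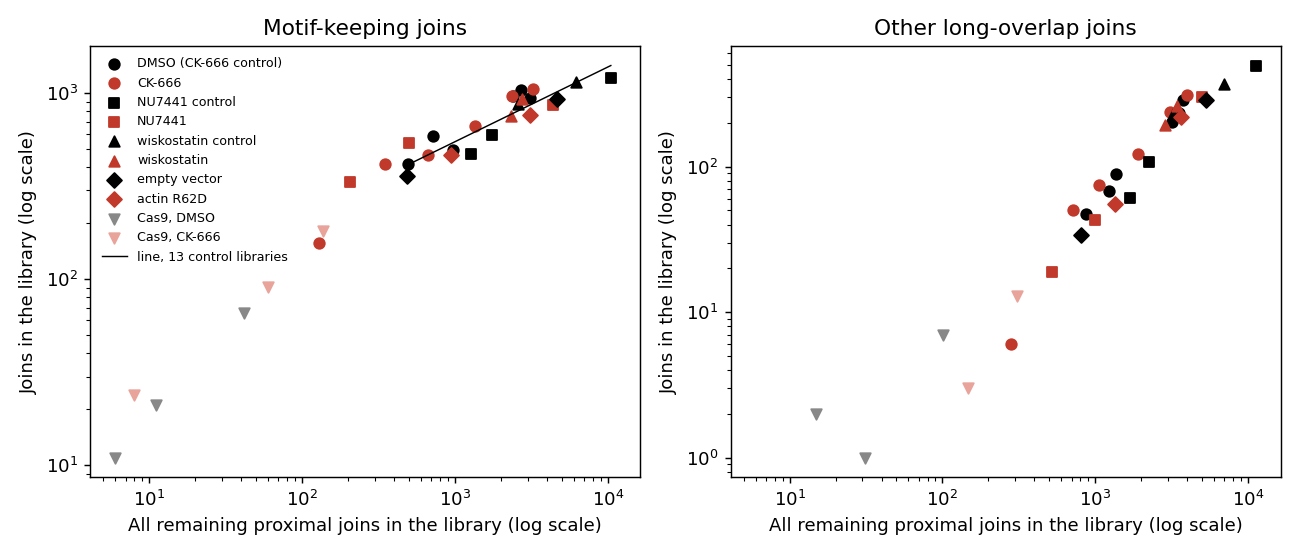
Each point is 1 library; the horizontal axis is the number of all remaining proximal joins and the vertical axis the number of motif-keeping (left) or other long-overlap (right) joins, both on log scales, with 1 Cas9 library without other long-overlap joins left out on the right. Motif-keeping numbers rise with a slope of 0.40 over the 13 control libraries (line), whereas other long-overlap joins lie between 3.49% and 7.09% of the proximal joins of those libraries.

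Motif-keeping joins were spread thinly over motifs and directions. In the 26 libraries they averaged 1.07 to 2.04 joins for each motif and Strand hit, and the highest number at any motif and Strand in a library was between 3 and 10. The remaining proximal joins averaged 1.70 to 19.3, and their highest number at a motif and Strand was between 13 and 190. Within a library, 25.5% of motif-keeping joins repeated the bait end, prey position, Strand and overlap of an earlier one, against 2.75% of the other long-overlap and 3.05% of the shorter-overlap joins. When the far end of the prey was required to match as well, only 2.09% repeated. A motif-keeping junction takes nearly 1 form at each motif and Strand, so such joins are told apart in these tables mainly by their far end. What part this has in the slope below 1 was not tested.

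Motif-keeping joins also recurred between libraries. Of the 18385, 97.7% shared bait end, prey position, Strand and overlap with a join in at least 1 other library, Cas9 libraries included. That share was 73.6% of the other long-overlap and 58.9% of the shorter-overlap joins. With the far end of the prey matched as well, 42.7% of motif-keeping joins recurred in another library, against 16.1% and 11.8%. A motif-keeping junction takes nearly 1 form at each motif and Strand, so the definition itself favours both kinds of match. The classes are therefore not comparable in them. Such matches to libraries sequenced in the same run were found for 16.6% of motif-keeping joins and to libraries of other runs for 37.2%. Each library had fewer libraries in its own run than in the other runs together, so the same-run and other-run shares are not comparable.

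Cas9 libraries from cells without AsiSI also held joins that passed the same rule. The DMSO libraries had 32, 17 and 108 proximal joins, and the CK-666 libraries 319, 32 and 151. Together these were 659 of 19414 joins more than 10 kb from the bait (3.39%), ranging from 0.539% to 6.74% between the libraries. Motif-keeping joins made up 21, 11 and 66 of those in the DMSO libraries and 182, 24 and 91 of those in the CK-666 libraries. In all they were 59.9% of the proximal joins, and 26 were other long-overlap joins. In each of the 6 libraries motif-keeping joins outnumbered all other proximal joins. All 6 were sequenced in the same run as the second wiskostatin library and its control. Of their 395 motif-keeping joins, 10.4% matched a library of the same run in junction and far end, and 49.1% matched a library of another run. The other runs together held more libraries than this one, so the same-run and other-run shares are not comparable. Where these joins came from was not tested. Joins carried over from AsiSI libraries, or assigned to the wrong library, cannot be told apart here from joins made in these cells. Motif-keeping joins were 0.349% to 3.85% of the joins more than 10 kb from the bait in the Cas9 libraries and 6.89% to 46.6% in the AsiSI-MEF libraries.

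Where on the genome the 2 classes lay was not used by the rule and could be compared within libraries. On chromosome 2, which carries the bait, lay 16.8% ± 1.09 (SD, n = 13) of the motif-keeping joins of a control library. The value was 32.8% ± 4.56 for other long-overlap joins and 33.98% ± 3.08 for shorter-overlap joins. The motif-keeping share was lower in 13 of 13 libraries against either class, with differences of -15.995 ± 4.31 and -17.2 ± 2.73 percentage points (exact sign-flip test over libraries, two-sided, p = 0.00024 for each, the smallest that 13 libraries can give; adjusted p = 0.00037 over 6 differences). The ranges did not overlap, with the highest motif-keeping share at 19.7% and the lowest other share at 26.3%. Within experiments the difference from other long-overlap joins averaged -18.4 points in the DMSO libraries, -15.4 in the NU7441 controls, -14.9 in the wiskostatin controls and -10.7 with empty vector.

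Frequently cut motifs showed the same order. The study lists 97 frequently cut sites, of which 96 remain without the bait. Motif-keeping joins fell at them in 45.8% ± 4.12 (SD, n = 13), other long-overlap joins in 64.8% ± 7.54 and shorter-overlap joins in 70.9% ± 5.32. Motif-keeping joins were lower in 13 of 13 libraries, with differences of -19.001 ± 4.77 points from other long-overlap and -25.1 ± 1.99 points from shorter-overlap joins (exact sign-flip test, p = 0.00024 and adjusted p = 0.00037 for each). The way repeated joins were counted bore on the size of these differences. When each motif and Strand was counted once per library and class, a setting chosen after seeing the data, the difference from shorter-overlap joins shrank to -9.63 points for frequently cut motifs and to -2.42 points for chromosome 2 (adjusted p = 0.00049 and 0.0011, exact sign-flip test). Against other long-overlap joins it was -21.3 and -12.2 points. In this setting a class with more joins in a library can reach more of the rarely hit motifs. The classes were not matched for number of joins, so these values mix counting of repeats with class size.

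Strand, the direction in which the prey read ran from its motif, was close to even in all classes. Strand plus held 50.01% ± 1.197 (SD, n = 13) of motif-keeping, 52.5% ± 4.85 of other long-overlap and 51.1% ± 1.40 of shorter-overlap joins in the control libraries. The difference between motif-keeping and other long-overlap joins, -2.47 ± 5.36 points, did not pass the test (exact sign-flip test, adjusted p = 0.12). It did pass with an overlap minimum of 5 (-3.45 points, exact sign-flip test, adjusted p = 0.043), for joins under 100 bp from a motif (-3.26 points, adjusted p = 0.044) and without empty-vector replicate 2 (-3.17 points, adjusted p = 0.044). Against shorter-overlap joins the difference was -1.07 ± 1.43 points, lower in 11 of 13 libraries (exact sign-flip test, adjusted p = 0.023), but in the 6 DMSO libraries alone it was -0.62 points (exact sign-flip test, adjusted p = 0.34) and with a minimum of 5 it was -0.85 points (adjusted p = 0.053). With each motif and Strand counted once, both differences were above 0, at 0.22 and 1.05 points, and neither passed (exact sign-flip test, adjusted p = 0.87 and 0.10). Both directions were seen at 317 of the 367 motifs that had a motif-keeping join. On chromosome 2, a deleted and an inverted segment between bait and prey read on opposite Strands, and past the bait motif-keeping joins numbered 1548 on Strand plus and 1444 on Strand minus. Other long-overlap joins there numbered 779 and 645, of which the unbroken out-of-register joins were 155 and 107. Before the bait on chromosome 2, joins on Strand plus and minus numbered 38 and 50 for motif-keeping, 21 and 29 for other long-overlap, 11 and 0 for unbroken out-of-register and 112 and 199 for shorter-overlap joins. These are pooled over the 26 libraries and repeat the same junctions, so no test was made.

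**Figure D4:**
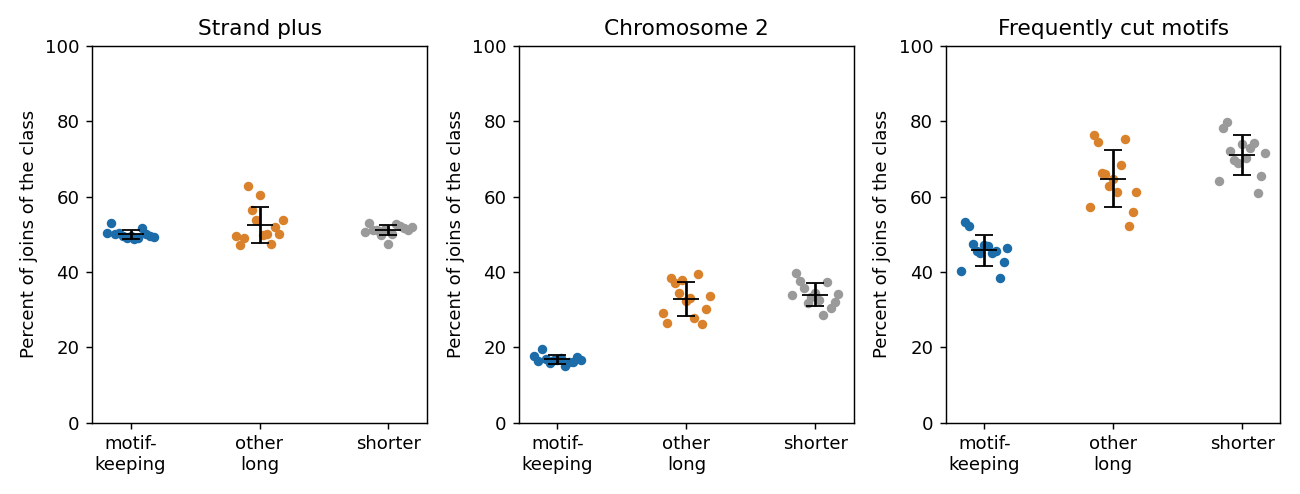
Percent of the joins of each class (vertical axis) that were on Strand plus, on chromosome 2 or at the 96 frequently cut motifs, in the 13 control libraries (points), with mean and SD (bars). Motif-keeping joins were lower on chromosome 2 and at frequently cut motifs than either other class in 13 of 13 libraries, and Strand was near 50% in all.

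Motif-keeping joins covered more of the genome's motifs than the other joins. They were found at 367 of the 1108 motifs, other long-overlap joins at 265 and shorter-overlap joins at 328. Numbers of joins differ between the classes, so the motif counts were also set to 4406 joins in each. A draw of that size would be expected to hold 326 motifs for motif-keeping and 261 for shorter-overlap joins, beside the 265 seen for other long-overlap joins. It took 89 motifs to hold 50% of motif-keeping joins, against 33 motifs for other long-overlap and 32 for shorter-overlap joins. The 10 most used motifs held 10.2%, 25.9% and 27.5% of each class. As given above, motif-keeping joins were also few at any single motif and Strand of a library. Drawing equal numbers of joins does not remove this, and its part in these motif counts was not tested. At 47 motifs, motif-keeping joins were the only proximal joins found, and no motif had other long-overlap joins without any motif-keeping join.

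Joins of each class lay mostly at gene starts. Motifs within 1 kb of an annotated start of a protein-coding gene (GENCODE vM21), 320 of the 1108, held 86.6% of motif-keeping, 93.0% of other long-overlap and 92.9% of shorter-overlap joins. Among the motifs with a join, 253 of 367 for motif-keeping, 224 of 265 for other long-overlap and 250 of 328 for shorter-overlap joins lay that close to a start. Introns held 30.7% of motif-keeping joins, UTRs 28.6%, coding exons 13.2%, exons of non-coding transcripts 6.63%, and sites outside annotated transcripts 20.9%. For other long-overlap joins these shares were 31.1%, 29.5%, 13.5%, 5.22% and 20.6%. Of the 1108 motifs themselves, 32.9% lay in introns, 9.48% in UTRs, 7.85% in coding exons, 3.34% in exons of non-coding transcripts and 46.5% outside annotated transcripts, so both classes exceeded the share of motifs in UTRs and fell below it outside transcripts.

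Prey motifs with the most joins were largely the same in both classes. Ranked by the mean over 26 libraries of the share of the library, 7 of the 10 leading motif-keeping and 9 of the 10 leading other long-overlap motifs lay on chromosome 2, and 7 motifs were on both lists. The motif near Pomt1, at chr2:32236003-32236010 in an intron of Gm13610 and 583 bp from the Pomt1 start, led the motif-keeping list with 259 joins in 26 libraries, 128 on Strand plus and 131 on Strand minus. It also held 114 other long-overlap joins, 84 on Strand plus and 30 on Strand minus, of which 38 were unbroken and out of register. The motif in the UTR of Romo1, which encodes a mitochondrial inner membrane protein, at chr2:156144260-156144267, came next with 246 motif-keeping joins and led the other list with 190. It was also the motif with the most proximal joins, 2827, so that only 8.70% of its joins kept the motif.

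Further down, Nup214 (chr2:31974701-31974708, intron) held 187 motif-keeping and 153 other long-overlap joins. Dnmt3b (chr2:153649703-153649710, UTR) held 183 and 110, with 131 of the 183 on Strand plus and 52 on Strand minus, the most uneven split of the 10. Arhgap11a (chr2:113847994-113848001, coding exon), held 177 and 120. Samhd1, a dNTP hydrolase gene (chr2:157135295-157135302, 34 bp from its start), held 190 and 97, of which 6 were unbroken and out of register. Fam160b1 (chr19:57361704-57361711, intron) held 165 and 88, of which 37 were unbroken and out of register. At Cdk12, the gene of a kinase that phosphorylates RNA polymerase II (chr11:98203681-98203688, coding exon), there were 124 motif-keeping joins and 41 other long-overlap joins, none of them unbroken and out of register. The 10 leading motif-keeping motifs were completed by Mex3a on chromosome 3 (155 joins) and Chst1 on chromosome 2 (167 joins), and all 10 were hit in 26 of 26 libraries. Pip4k2a, Fam171b and Fign, all on chromosome 2, stood only on the other long-overlap list, with 83, 93 and 72 such joins and 130, 113 and 143 motif-keeping joins. Of the 93 at Fam171b, 78 were on Strand plus and 15 on Strand minus.

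Between motifs, as between libraries, the motif-keeping share was lower where there were more joins. Over the 198 motifs with 100 proximal joins or more it ranged from 5.68% to 56.3%, with a median of 28.8%. The highest share was at Cap2, which encodes an actin-regulating protein (chr13:46501924-46501931, UTR), with 58 motif-keeping among 103 proximal joins. The lowest was near Arhgap21 (chr2:20968930-20968937), with 115 among 2025. Across the 198 motifs the share and the number of proximal joins had a Spearman rho of -0.93, in points that share libraries and with the number in the denominator of the share. The median share was 23.5% at the 91 frequently cut motifs of this set and 35.7% at the other 107.

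END-seq, which maps broken DNA ends by sequencing from them, gave the study's own ranking of how often each motif was cut. It is used here only as an order of motifs. Across all 1108 motifs, the number of motif-keeping joins had a Spearman rho of 0.73 with END-seq, and the values were 0.69 for other long-overlap and 0.72 for shorter-overlap joins. On log2 values Pearson's r was 0.86, 0.79 and 0.85. In the 13 control libraries taken singly, rho was 0.62 to 0.72 for motif-keeping joins and 0.22 to 0.58 for the other long-overlap joins, which are fewer. Within the 96 frequently cut motifs rho was 0.53, 0.55 and 0.56. For the unbroken out-of-register joins it was 0.53 over all motifs and 0.28 within the frequently cut ones. Motif-keeping and shorter-overlap joins had a rho of 0.94 with each other across the 1108 motifs, and these correlations across motifs share libraries and sequence context.

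By END-seq rank, the motif-keeping share of proximal joins rose from the most cut motifs downwards. It was 15.7% at the 49 motifs besides the bait of ranks 1 to 50, 20.6% at the next 50, 29.4% at the next 100 and 43.8% at the next 200. Beyond rank 400 it was 29.4%, with 538 motif-keeping joins at 51 of 709 motifs, but 4 of these motifs held 307 of the 538 and 1519 of the 1831 proximal joins of that bin. All 4 were among the 286 motifs tied at the lowest END-seq value. Without them, a choice made after seeing the data, 231 of 312 joins (74.0%) kept the motif. The 4 were taken out for holding 100 joins or more, and motifs with many joins had lower shares in general. The other bins were left whole, so the value without the 4 is not comparable with theirs. The other long-overlap share lay between 5.00% and 5.71% in all 5 bins, and without the 4 motifs it was 1.28% in the last bin, from 4 joins. In numbers, motif-keeping joins fell from 102 per motif in the first of these bins to 56.7 in the third, while other long-overlap joins fell from 37.1 to 11.01 and shorter-overlap joins from 513 to 125.

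For the treatments, each treated library was compared with the control of the same replicate number, as the ratio of its share of proximal joins to that of the control. With the DNA-PKcs inhibitor NU7441, motif-keeping shares were 51.8%, 61.9% and 16.4%, against 25.4%, 27.1% and 10.3% in the 3 controls. The share was higher in 3 of 3 pairs, 1.95-fold on average, with a log2 ratio of 0.96 ± 0.27 (SD, n = 3 pairs). The exact sign-flip test gave p = 0.25, the smallest that 3 pairs allow (adjusted p = 0.5), so this design cannot reach significance. Library size moved with the comparison, since the controls had 2.28, 3.23 and 2.22 times as many proximal joins as the treated libraries. Set against the line of motif-keeping number on remaining joins over the 13 control libraries, an alternative added after seeing the data, the log2 difference was 0.57, 0.55 and 0.02 in the 3 pairs, with a mean of 0.38. NU7441 replicate 2 had 206 remaining joins, below the 486 to 10464 of the control libraries behind the line. With each motif and Strand counted once per library and class, the log2 ratio was 0.26 ± 0.16.

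Other long-overlap joins made up 4.15%, 3.52% and 5.72% of proximal joins with NU7441 and 4.58%, 3.49% and 4.24% in the controls, so the groups overlapped. Their log2 ratio was 0.11 ± 0.29 (SD, n = 3 pairs; exact sign-flip p = 0.75). Limited to unbroken out-of-register overlaps, also chosen after seeing the data, the shares were 1.06%, 1.30% and 2.17% with NU7441 and 0.721%, 0.802% and 0.668% in the controls. That was higher in 3 of 3 pairs, with a log2 ratio of 1.00 ± 0.60 (exact sign-flip p = 0.25). These shares rested on 11, 7 and 114 joins with NU7441 and on 17, 14 and 78 in the controls. In the first 2 pairs the numbers were thus small, and lower with NU7441.

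With CK-666 the motif-keeping shares were 41.2%, 54.7%, 29.0%, 24.5%, 54.4% and 32.8%, against 45.7%, 33.9%, 27.7%, 28.7%, 45.2% and 23.2% with DMSO. The ranges of the groups overlapped, and the share was higher in 4 of 6 pairs. The log2 ratio of 0.19 ± 0.36 (SD, n = 6 pairs) did not pass the test (exact sign-flip p = 0.28, adjusted p = 0.56). Replicate 2 contributed the largest ratio, 1.62-fold, with 285 proximal joins against 1465 in its control. Against the line over control libraries the mean difference turned to -0.12, below 0 in 6 of 6 pairs (exact sign-flip p = 0.031, the smallest 6 pairs allow, adjusted p = 0.062). Of those 6 differences 5 lay between -0.09 and -0.01, and replicate 2, at -0.50, made up most of the mean. The control libraries behind the line had 486 to 10464 remaining joins. CK-666 replicate 2 had 129 and CK-666 replicate 5 had 348, so their differences were read off beyond the range of the line.

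Other long-overlap joins were 6.64%, 2.11%, 7.20%, 7.32%, 6.55% and 6.08% of proximal joins with CK-666 and 5.15%, 6.08%, 6.20%, 5.96%, 5.22% and 7.09% with DMSO. The log2 ratio was -0.07 ± 0.70 (SD, n = 6 pairs; exact sign-flip p = 0.94). The value of replicate 2 rests on 6 joins, and without that pair the mean log2 ratio was 0.20.

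With 2 pairs the exact sign-flip test cannot go below p = 0.5. With wiskostatin the motif-keeping shares were 24.6% and 25.3%, against 15.6% and 25.1% in the controls, and other long-overlap shares were 6.25% and 7.12% against 5.04% and 6.59%. Both pairs were higher in both classes (exact sign-flip p = 0.5). The first wiskostatin control had 2.40 times as many proximal joins as its treated library. With actin R62D the motif-keeping shares were 19.7% and 33.2%, against 16.5% and 42.4% with empty vector, so the pairs moved in opposite directions (exact sign-flip p = 1). Against the line over control libraries, the motif-keeping differences of these 4 pairs lay between -0.03 and 0.06 on the log2 scale.

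**Figure D5:**
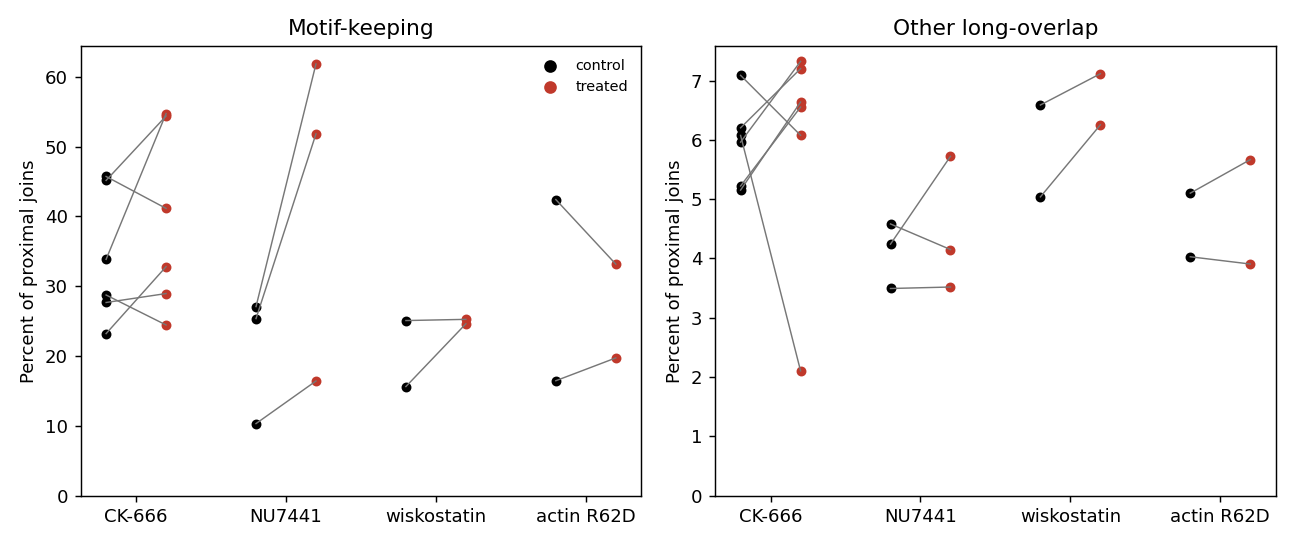
Percent of proximal joins (vertical axis) that were motif-keeping (left) or other long-overlap (right) in control (black) and treated (red) libraries of each experiment, with lines joining libraries of the same replicate number. With NU7441 the motif-keeping share is higher in 3 of 3 pairs; with CK-666 the groups overlap, and replicate 2 with CK-666 is the low point at 2.11% on the right.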

How the data were processed

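HTGTS junction tables of 32 libraries (26 from AsiSI-MEFs, 6 from Cas9-cut WT MEFs) were analysed; the 12 Hi-C samples were not used. Per the study's methods, the authors aligned reads to mm10 with BWA and kept joins that passed transloc_pipeline at default parameters; the deposited tables list 1 join per row, with genome coordinates and read positions as other, unscaled values. Normalization to bait-only reads was not used here. All 1109 listed motifs matched the GRCm38 reference.

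Joins were counted per library; libraries held 285 to 11669 proximal joins in AsiSI-MEFs, so 3 joins were 0.0257% to 1.05% of a library. Shares were compared as log2 of (joins + 0.5)/(total + 1) by exact sign-flip tests over pairs, and within-library differences by exact sign-flip tests over 13 control libraries, with Benjamini-Hochberg adjustment over 2 classes and 6 differences (threshold 0.05). Pairs follow replicate numbers, as the study's source data do; same-numbered libraries correlated at 0.01 to 0.19 (CK-666) and 0.05 to 0.23 (NU7441) in their deviations over 235 motifs. Permutation tests of correlations used 100000 draws. Named motifs were the 10 with the highest mean library share in each class and the highest and lowest motif-keeping share among motifs with 100 joins or more; genes are the nearest protein-coding start. Python 3.11.15, NumPy 2.4.6, pandas 2.3.3 and SciPy 1.17.1 were used, and the classification was tested on simulated data. The joins, lists and rules were chosen with earlier results of these data known. Alternatives covered the overlap minimum, distance, counting of repeats, judgement of the motif, denominators and left-out libraries.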

Additional observations from a re-analysis of the deposited data

Results flagged for a closer look

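In DMSO replicate 1, 19.7% of motif-keeping joins lay on chromosome 2, against 15.9% to 17.1% in the other 5 DMSO libraries, and 52.3% lay at frequently cut motifs, against 45.0% to 47.4%. In CK-666 replicate 2, other long-overlap joins made up 2.11% of proximal joins, against 6.08% to 7.32% in the other 5 libraries, and 50% of these joins lay on chromosome 2, against 30.1% to 36.0%; both values rest on 6 joins. Each was the farthest of 6 libraries from its neighbour by Dixon's criterion, which chance meets in about 1 of 20 groups, and 18 combinations of group and measure were examined.

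In the 6 Cas9 libraries, from cells without AsiSI, 395 motif-keeping joins were found, 11 to 182 in a library, above the 3 joins that a count of 0 would allow. Their origin was not tested.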

How the results depend on the processing

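The lower share of motif-keeping joins on chromosome 2 and at frequently cut motifs kept its direction and its side of the threshold in each alternative run. Of 232 values recomputed under the alternatives listed with the methods, 216 were rated unchanged, as were 35 of 45 under alternatives chosen after seeing the data. Tested results had to keep direction and side of the threshold. Untested ones had to keep direction and stay within the SD of the main value. The NU7441 ratios could not cross the threshold, since 3 pairs allow no sign-flip p below 0.25. Leaving out 1 control library could not move the chromosome 2 and frequently cut differences across it either. All 13 libraries had the same sign for them. Many of the unchanged ratings were thus fixed in advance, and their number does not measure robustness. Strand and the treatment ratios moved most, and the cause was not tested. With an overlap minimum of 5, the log2 ratio of other long-overlap joins was 0.074 for CK-666 and -0.00068 for actin R62D, and the Strand plus difference of motif-keeping joins was -3.45 points from other long-overlap (adjusted p = 0.043, exact sign-flip test) and -0.85 from shorter-overlap joins (adjusted p = 0.053). With a minimum of 8, the log2 ratio of other joins was 0.36 for wiskostatin and -0.061 for R62D, and 94.4% of long-overlap joins in controls were motif-keeping, against 82.5%. Within 100 bp of a motif the Strand difference from other joins was -3.26 points and passed the test (adjusted p = 0.044, exact sign-flip test). As a share of all joins over 10 kb away, the ratio was -0.026 for other joins with NU7441 and 0.054 for motif-keeping joins with R62D. In the 6 DMSO libraries alone the Strand difference from shorter-overlap joins was -0.62 points.

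Of the added alternatives, counting each motif and Strand once gave log2 ratios of other joins of -0.65 (NU7441), -0.15 (wiskostatin) and -0.0091 (R62D), and Strand differences of 0.22 and 1.05 points. Judging the motif by the read letters gave -0.023 for other joins with R62D and -0.76 points for Strand against shorter-overlap joins. Limited to unbroken out-of-register overlaps, other joins gave -0.066 with wiskostatin and 0.64 with R62D. Set against the line over controls, motif-keeping joins with CK-666 gave -0.12.

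Leaving out each pair gave log2 ratios for motif-keeping joins of 0.09 to 0.27 (CK-666), 0.85 to 1.11 (NU7441) and -0.35 to 0.26 (R62D), and for other joins of -0.16 to 0.20, -0.050 to 0.23 and -0.052 to 0.15. Leaving out each control library gave Strand differences from other joins of -3.17 to -1.63 points, the former without empty-vector replicate 2, where it passed the test. Without the replicate block, that is without pairing, the log2 ratios of 0.19 and -0.07 (CK-666) and 0.96 and 0.11 (NU7441) had exact permutation p = 0.45, 0.97, 0.3 and 0.7, so no call changed. Same-numbered libraries correlated above 0.1 in 2 of 6 CK-666 and 2 of 3 NU7441 pairs. The same-numbered control gave the highest correlation for 3 of 6 CK-666 and 3 of 3 NU7441 libraries. For the other CK-666 libraries a control of another number correlated better, so the pairing rests on the study's source data.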
